A study of Mus musculus with 12 samples.

Results

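The integrated stress response was followed in mouse liver through 10 genes: Atf4, its transcription factor relatives and targets Atf5, Ddit3 and Nupr1, the feedback genes Trib3 and Ppp1r15a, the amino acid synthesis genes Asns, Psat1 and Phgdh, and the glutathione-degrading Chac1. They were chosen by their symbols, with earlier results of these data known, and all 10 were found among the 17432 genes of the deposited table. Both groups were male wild-type C57BL/6J mice (a common inbred strain) of 8 to 10 weeks, fed only by day in the days before, then refed, and without food during the test period. In the days before, the study also acclimated the mice to the treadmill, with shock grids on and a short forced run each day. In the test the 6 Exercise mice ran on a treadmill at 14 m/min for 3 h, and the 6 Sedentary mice did not run. Livers of both groups were taken when the run ended. The comparison asks how a single bout of exercise in the fed state changes liver transcripts.

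In the integrated stress response, the kinases PERK, GCN2, PKR and HRI phosphorylate the translation initiation factor eIF2 on its alpha subunit. This lowers general translation and favours translation of a few mRNAs with short upstream reading frames, among them those of ATF4, ATF5, CHOP (from Ddit3) and GADD34 (from Ppp1r15a). ATF4 then pairs with C/EBP proteins and switches on genes for amino acid synthesis and import, tRNA charging, redox balance and the shut-off of the response itself. The mRNA level of Atf4 is therefore only part of what sets the level of the ATF4 protein, which was not measured here.

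Dimers of ATF4 and C/EBP proteins bind elements with the core TGATGNAA. This core was searched on both strands of the RefSeq promoter windows (GRCm38.p6, the same coordinates as mm10), each running from 250 bases before to 50 bases after an annotated start. All 10 genes had a window, and 4 of them held the core: Chac1, Trib3, Asns and Nupr1. Among all 27025 genes with a window the share was 4.51%, and among the 9920 tested genes with one it was 2.85%. The full cAMP response element, TGACGTCA, was present in the window of Ppp1r15a alone among the 10 genes. The share was 2.03% of all genes and 3.4% of the tested genes with a window. Among 141 other pathway genes with a window, from the lists described further on, 16 (11.3%) held the ATF4 core. They were Aars, Atf3, Eif2s3x, Fgf21, Gars, Got1, Herpud1, Iars, Jdp2, Pck2, Pycr1, Slc1a4, Slc7a11, Tars, Vldlr and Yars. The stretches of Chac1, Trib3, Asns, Nupr1 and Ppp1r15a are shown because their levels are described next as known ATF4 targets. The match is in capitals, read in the direction of transcription, on the reverse complement of the core for Chac1, Trib3 and Nupr1.

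Chac1 (chr2:119351038-119351067, + strand): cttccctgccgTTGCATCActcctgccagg
Trib3 (chr2:152344028-152344057, - strand): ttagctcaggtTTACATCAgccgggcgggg
Asns (chr6:7693214-7693243, - strand): tcccagccacaTGATGAAActtcccgcacg
Nupr1 (chr7:126625562-126625591, - strand): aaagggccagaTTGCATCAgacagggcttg
Ppp1r15a (chr7:45526262-45526291, - strand): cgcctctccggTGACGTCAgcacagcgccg

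The first base of the match lay 193 bases before the RefSeq start in Chac1, 110 in Nupr1, 23 in Asns and 12 in Ppp1r15a, and 14 bases after it in Trib3. In the GENCODE M21 annotation the matches of Asns and Nupr1 fell within exons of transcripts that begin further upstream, while those of Chac1, Trib3 and Ppp1r15a fell outside exons. A match is a description of these letters and not evidence of binding. No match was found in the windows of Atf4, Atf5, Ddit3, Psat1 and Phgdh, which says nothing of the sequence elsewhere.

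The libraries were even in depth, from 18745339 to 19324448 rounded counts. The 8 hepatocyte markers were all tested, 3 were higher (Alb, Hnf4a and Tat, the last 3.55-fold) and none lower, with a summed level of 120000 to 161000 CPM in Sedentary and 150000 to 171000 CPM in Exercise livers. Of 38 markers of other liver cell types 31 were tested, 5 were higher and 3 lower, with a summed level of 432 to 534 CPM in Sedentary and 437 to 634 CPM in Exercise livers. Over all genes tested 42.4% were called by the test given below, 21.1% higher and 21.3% lower. Among the hepatocyte markers the share called was 37.5%. Of 7 markers of striated and cardiac muscle 4 were tested and all were called lower, with a summed level of 11.1 to 23 CPM in Sedentary and 0.058 to 11.3 CPM in Exercise livers. Exercise replicate 1 was the Exercise liver with the high muscle value, and Exercise replicate 3 stood apart from its group in several genes, so that counts are also given without this pair. The part of these markers in the results was not tested. In bulk liver RNA, fewer cells of a type and less RNA per cell cannot be told apart.

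The 10 genes did not share a direction after exercise. Trib3, Ppp1r15a and Ddit3 were higher after exercise, Atf4 and Psat1 were lower, and Atf5, Asns, Chac1 and Nupr1 did not pass the test. Phgdh had too few reads to be tested. Levels are CPM, read counts scaled to a common library size with edgeR's TMM factors. A gene is called when its p, from the quasi-likelihood F test of edgeR adjusted over the 12344 genes tested, is under 0.05. Of the 9 genes tested 5 were called, where 42.4% of all genes tested were. Higher calls made up 3 of the 9 against 21.1% of all genes, and lower calls 2 of the 9 against 21.3%. In 2 of the 10 genes, Trib3 and Ppp1r15a, the groups did not overlap, as in 22.3% of all genes tested. With livers scaled by library size alone, over all genes 1767 were higher and 3735 lower in place of 2603 and 2626, and among the 9 genes 2 were higher and 3 lower, since Ddit3 lost its call and Atf5 gained one.

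**Figure D1:**
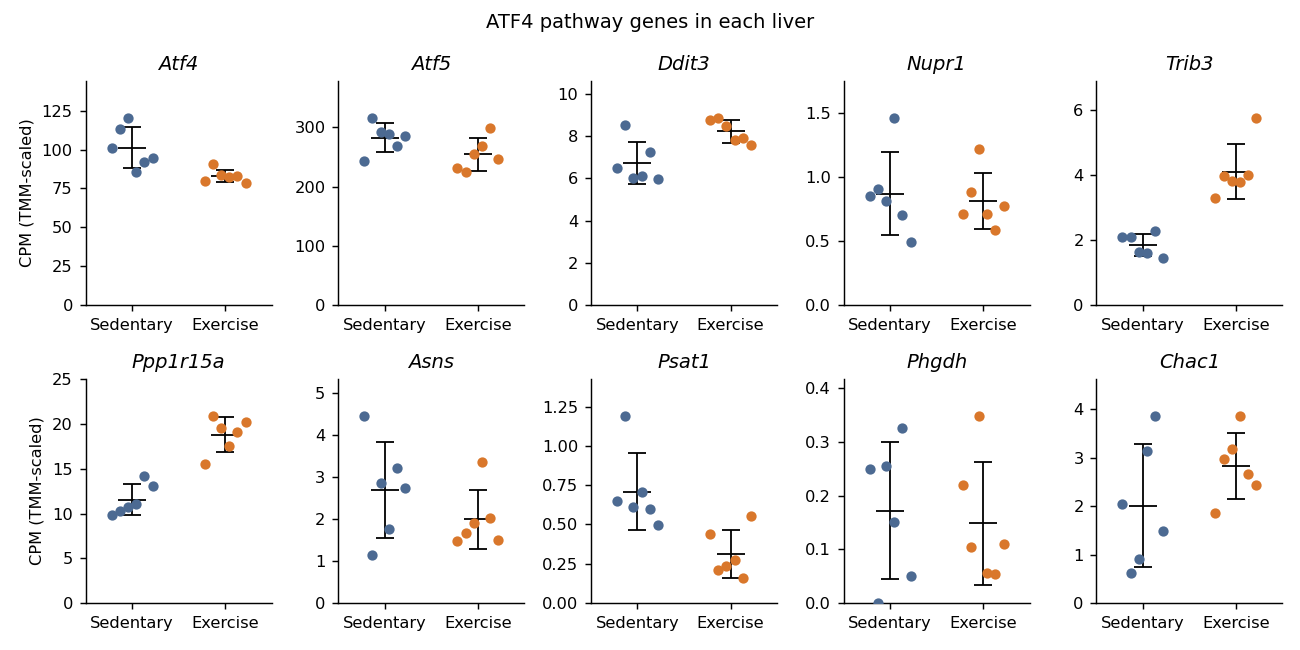
Level of each gene (y axis, TMM-scaled CPM, from 0) in each of the 6 Sedentary and 6 Exercise livers; points are livers in the order of their replicate numbers, the bar is the mean and the whiskers are the SD. Trib3 and Ppp1r15a are the 2 genes in which no Exercise liver overlaps a Sedentary liver.

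Within a liver, levels between genes were compared as FPKM, which is scaled for transcript length. In Sedentary livers Atf5 had the highest mean level of the 10 (173 ± 18.5 FPKM, SD, n = 6), followed by Atf4 (70.7 ± 9.88), and the ranges of this pair did not overlap each other or those of any other gene. Ddit3 (6.6 ± 1.35 FPKM) and Ppp1r15a (5.2 ± 0.656) came next with overlapping ranges. Nupr1 (1.56 ± 0.586), Asns (1.46 ± 0.635), Chac1 (1.35 ± 0.813) and Trib3 (0.962 ± 0.176) had ranges that overlapped one another, and Psat1 (0.347 ± 0.133) and Phgdh (0.095 ± 0.0677) were lowest. In Exercise livers Ppp1r15a (7.97 ± 0.942 FPKM) stood above Ddit3 (7.33 ± 0.55), with ranges that still overlapped, and Trib3 had the highest mean of the low group at 1.98 ± 0.415, with a range overlapping those of Chac1, Nupr1 and Asns.

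The transcription factors themselves showed small changes. Atf4 (gene ID 11911, chromosome 15 of GRCm38, 80255184 to 80257541, + strand), the central activator of the pathway, ranged from 85.5 to 120 CPM with a median of 98 in Sedentary livers. In Exercise livers it ranged from 78.8 to 90.5 CPM with a median of 82.9. The ranges overlapped, though only Sedentary replicate 4 lay inside the Exercise range, and the Exercise livers lay closer together. Atf4 fell by 0.28 on the log2 scale (SE 0.074, adjusted p = 0.00497 from edgeR's test), from 101 ± 13.1 to 83 ± 4.12 CPM (SD, n = 6). An exact two-sided permutation test over every relabelling of the livers gave p = 0.00433 for the difference of mean log2(CPM + 0.5), where 0.00216 is the smallest p it can give. The fall of Atf4 kept its call in each of the 12 fits that left out 1 liver, with log2 fold changes from -0.33 to -0.23.

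Atf5 (gene ID 107503, chromosome 7, 44812256 to 44816658, - strand), a relative of ATF4 that is abundant in liver, ranged from 243 to 315 CPM (median 287) in Sedentary and from 225 to 299 CPM (median 250) in Exercise livers. Its log2 fold change was -0.15 (SE 0.075), which did not pass (edgeR adjusted p = 0.114). The value passed without Sedentary replicate 1 (-0.19, edgeR adjusted p = 0.0432), without Exercise replicate 5 (-0.20, adjusted p = 0.0419) and with library size alone (-0.25, adjusted p = 0.0171). Atf5 shares its locus with Nup62 and Il4i1 on the opposite strand. Nup62, a nuclear pore gene, was called higher (log2 fold change 0.32, edgeR adjusted p = 0.000768), and whether the counting used strand is not given in the sources used here.

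Ddit3 (gene ID 13198, chromosome 10, 127290774 to 127296288, + strand) encodes CHOP, a factor that promotes cell death when stress persists. It ranged from 5.96 to 8.54 CPM (median 6.3) in Sedentary livers and from 7.57 to 8.83 CPM (median 8.17) in Exercise livers. Sedentary replicate 2 was the only Sedentary liver inside the Exercise range. The log2 fold change was 0.29 (SE 0.097, edgeR adjusted p = 0.0228), and the exact permutation test gave p = 0.0173. This call was lost without Sedentary replicate 3 (log2 fold change 0.26, edgeR adjusted p = 0.052), without Sedentary replicate 6 (0.26, adjusted p = 0.0537), without Exercise replicates 1 and 3 (0.26, adjusted p = 0.0874) and with library size alone (0.19, adjusted p = 0.15). Ddit3 overlaps the methionyl-tRNA synthetase gene Mars1 on the opposite strand, which was called lower (log2 fold change -0.25, edgeR adjusted p = 0.000861), and several of its estimated counts were not whole numbers, from 118 to 179.01 in Sedentary livers.

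Nupr1 (gene ID 56312, chromosome 7, 126623249 to 126630861, - strand), a small chromatin protein induced by stress, was scarce. It ranged from 0.497 to 1.46 CPM in Sedentary livers and from 0.586 to 1.22 CPM in Exercise livers, on 10 to 29 reads in a Sedentary liver. The log2 fold change of -0.10 (SE 0.26) did not pass (edgeR adjusted p = 0.777) and became 0.10 without Sedentary replicate 4, the highest liver.

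Both feedback genes were called higher. Trib3 (gene ID 228775, chromosome 2, 152337422 to 152344032, - strand) encodes a pseudokinase that binds ATF4 and AKT and dampens both. Its level in Sedentary livers ran from 1.44 to 2.28 CPM with a median of 1.87. In Exercise livers it ran from 3.28 to 5.74 CPM with a median of 3.9, so that every Exercise liver was above every Sedentary liver. Trib3 rose 2.2-fold (log2 fold change 1.14, SE 0.16, edgeR adjusted p = 1.74e-05), on 221 reads in all Sedentary livers and 450 in all Exercise livers. The exact permutation test gave p = 0.00216, the smallest it allows, which every gene without overlap reaches. Exercise replicate 6 stood apart at 5.74 CPM, the next liver being at 4 CPM, and without it the log2 fold change was 1.03.

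Ppp1r15a (gene ID 17872, chromosome 7, 45522916 to 45526268, - strand) encodes GADD34, the inducible subunit that directs a phosphatase to eIF2alpha and so ends the response. It ran from 9.8 to 14.2 CPM (median 10.9) in Sedentary and from 15.5 to 20.9 CPM (median 19.4) in Exercise livers. All Exercise livers were again above all Sedentary livers, with Exercise replicate 1 the lowest of its group. Ppp1r15a rose 1.63-fold (log2 fold change 0.71, SE 0.095, edgeR adjusted p = 1.46e-05). The exact permutation test gave p = 0.00216, which again follows from the lack of overlap. Leaving out 1 liver at a time kept the value between 0.67 and 0.78. Tulp2, which overlaps it on the opposite strand, was at 0.273 CPM in Sedentary and 0.21 CPM in Exercise livers. The constitutive partner Ppp1r15b had a log2 fold change of 0.079, which did not pass (edgeR adjusted p = 0.296) and changed sign with library size alone (-0.019).

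**Figure D2:**
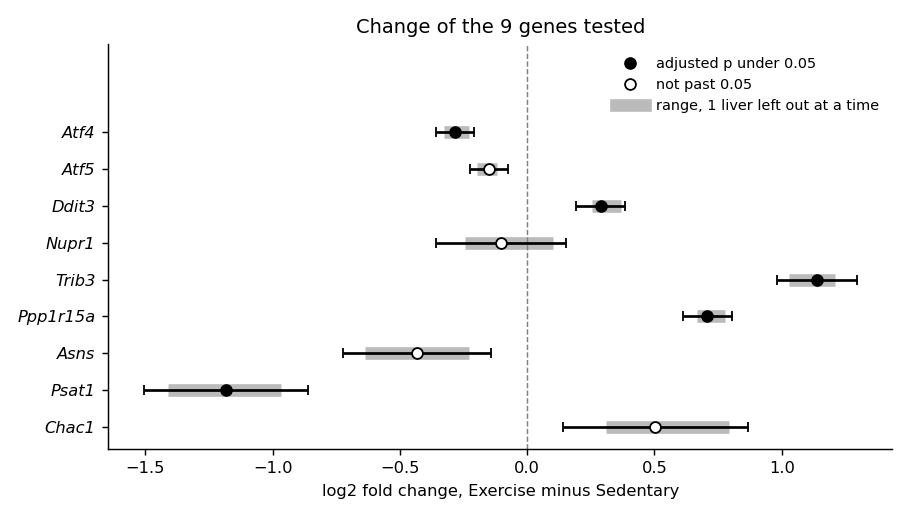
Log2 fold change of Exercise against Sedentary (x axis) for the 9 genes tested (y axis); circles are the edgeR estimates with whiskers of 1 SE, filled where the adjusted p was under 0.05, and the grey bars span the 12 fits that left out 1 liver each. Trib3 at 1.14 and Psat1 at -1.18 lie farthest from 0, and only the bar of Nupr1 crosses 0.

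The genes for amino acid synthesis, which are standard targets of ATF4, gave no higher call. Asns (gene ID 27053, chromosome 6, 7675169 to 7693254, - strand), asparagine synthetase, ranged from 1.15 to 4.45 CPM (median 2.79) in Sedentary and from 1.48 to 3.36 CPM (median 1.79) in Exercise livers. The Sedentary livers spanned the whole Exercise range, and the coefficient of variation was 42.8% in Sedentary and 35.5% in Exercise livers. The log2 fold change was -0.43 (SE 0.29), which did not pass (edgeR adjusted p = 0.254). It was -0.23 without Sedentary replicate 1, the highest liver, and -0.64 without Exercise replicate 4, which stood apart from its group at 3.36 CPM.

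Psat1 (gene ID 107272, chromosome 19, 15904678 to 15947337, - strand), phosphoserine aminotransferase of the serine pathway, had 10 to 25 reads in a Sedentary liver and 3 to 10 in an Exercise liver. This is 0.497 to 1.19 CPM (median 0.631) against 0.16 to 0.552 CPM (median 0.254). The groups overlapped through Exercise replicate 6 alone, which had as many reads as Sedentary replicate 6. Psat1 fell by 1.18 on the log2 scale (SE 0.32, edgeR adjusted p = 0.00654), and the exact permutation test gave p = 0.00433. The value was -0.97 without Sedentary replicate 2, the highest liver, and the call held in each of the 12 fits that left out 1 liver. GENCODE places a pseudogene, Gm3329, on the opposite strand within Psat1.

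Phgdh (gene ID 236539, chromosome 3, 98313170 to 98339990, - strand) makes the first step of serine synthesis. It was counted with 0 to 6 reads in a liver, 20 in all Sedentary and 16 in all Exercise livers, and did not pass the filter on low counts. In a fit without the filter the log2 fold change was -0.20 (SE 0.60, edgeR adjusted p = 0.843), and a difference was not detectable at this depth.

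Chac1 (gene ID 69065, chromosome 2, 119351229 to 119354381, + strand) encodes an enzyme that degrades glutathione and is among the strongest targets of ATF4 in cultured cells. It was the most variable gene among the 9 tested in Sedentary livers, from 0.62 to 3.86 CPM (median 1.77), with a coefficient of variation of 63.2%. In Exercise livers it ran from 1.86 to 3.86 CPM (median 2.82) with a coefficient of variation of 24.1%. Both groups reached the same highest value, and 3 Sedentary livers lay below every Exercise liver. The log2 fold change was 0.50 (SE 0.36), which did not pass (edgeR adjusted p = 0.297), and ran from 0.31 without Sedentary replicate 2 to 0.79 without Sedentary replicate 5.

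Ratios within a liver need no scaling between livers, and they set the targets against Atf4 itself. For each 1000 Atf4 reads there were 13.6 to 24.7 Trib3 reads in Sedentary livers and 41.2 to 72.9 in Exercise livers. The same ratio was 88.6 to 154 against 194 to 256 for Ppp1r15a, and 50 to 78.4 against 94.6 to 110 for Ddit3. These ratios did not overlap between the groups, and each combines the fall of Atf4 with the rise of the other gene. A fall of Atf4 alone raises such a ratio, and the CPM ranges of Ddit3 itself overlapped. The share of all genes whose ratio to Atf4 does not overlap was not computed, so the separation cannot be set against a background. The ratios of Asns (10.2 to 44 against 18.5 to 40.8), Chac1 (5.51 to 41.8 against 23.4 to 46.8) and Psat1 (5.09 to 10.6 against 1.92 to 7.01) overlapped.

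**Figure D3:**
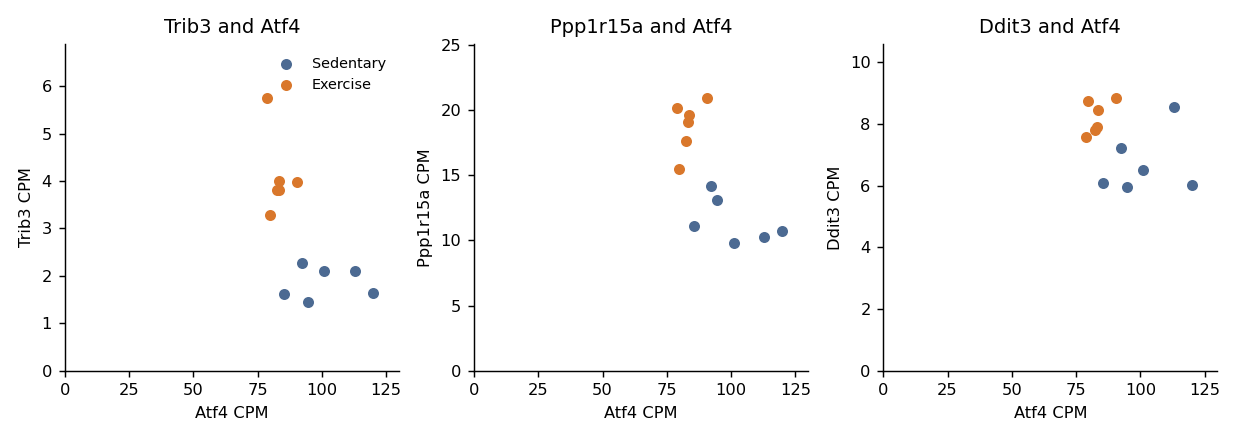
Level of Trib3, Ppp1r15a and Ddit3 (y axes, TMM-scaled CPM, from 0) against that of Atf4 (x axes, TMM-scaled CPM, from 0) in each liver, Sedentary in blue and Exercise in orange. The Exercise livers lie between 78.8 and 90.5 CPM of Atf4 and at 3.28 CPM or more of Trib3.

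Livers of a group differed from one another, and the genes did not deviate together. After each group's mean was removed, Pearson's r of log2(CPM + 0.5) was positive in 22 of the 45 pairs of genes, with a median of -0.0067 over the 12 livers. The lowest value was -0.68, between Atf4 and Chac1 (Spearman's rho -0.51, permutation p = 0.0775 and 0.154, r without the 2 livers farthest from the median of Atf4 -0.513). The highest was 0.488, between Asns and Chac1 (rho 0.406, permutation p = 0.199 and 0.292, r without the 2 farthest livers 0.216). Asns and Psat1 gave the only unadjusted p under 0.05 (r -0.617, permutation p = 0.0439, rho -0.455, permutation p = 0.143, r without the 2 farthest livers -0.447). After Benjamini-Hochberg adjustment over the 45 pairs no pair passed, and these values were 0.945 for r and 0.984 for rho in each of the 3 pairs.

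**Figure D4:**
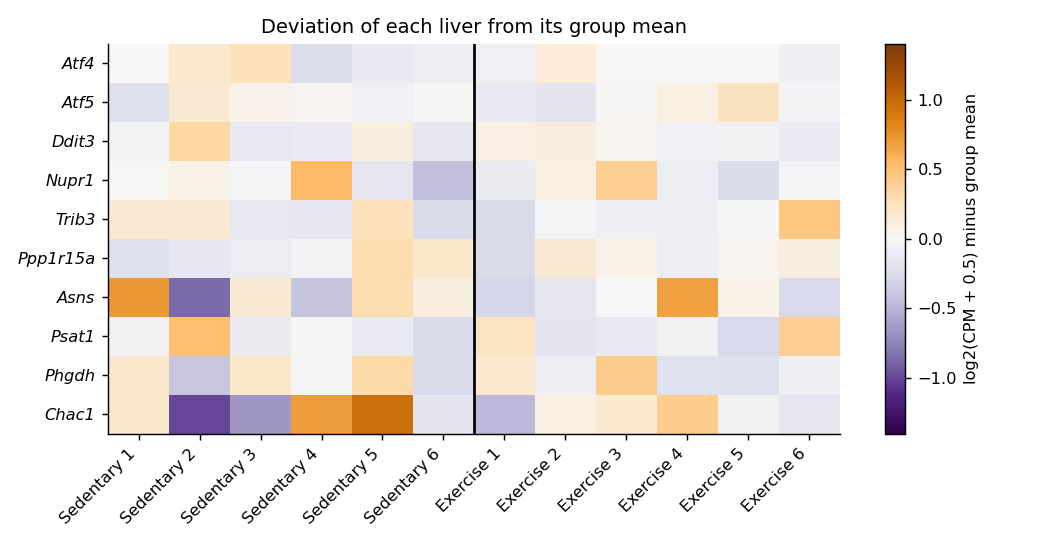
Deviation of each liver (columns) from the mean of its own group for each gene (rows), as a colour scale of log2(CPM + 0.5) minus the group mean, brown for higher and purple for lower. Asns and Chac1 vary most among Sedentary livers, and no column is brown or purple throughout.

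The genes whose deviations were most like those of a given gene were other than the 10, chosen by the highest r among the 11537 genes tested whose mean reached 1 CPM, and given as a description. For Atf4 they were Zfp768 (r 0.944), Aaas (0.909) and Jund (0.884). For Trib3 they were Mbtps2 (0.881), Rfc3 (0.847) and Bbc3 (0.843), for Asns Herc4 (0.887), Tut7 (0.878) and Ppp4r3a (0.876), and for Psat1 Stx3 (0.898), Stx8 (0.884) and Maged2 (0.854). Mbtps2 encodes a protease that releases ATF6 from the Golgi, and Bbc3 the cell death protein PUMA. The 12 livers share these points, and the best of so many genes is high by selection.

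Around the 10 genes, 168 others of the pathway were tested from 14 lists, of which 103 (61.3%) were called, 60 higher and 43 lower, where 42.4% of all genes were called. With library size alone the split was 47 higher and 53 lower, and without Exercise replicates 1 and 3 it was 52 and 38. The median log2 fold change over these genes was 0.072, against -0.0028 over all genes tested. The counts of each list below stand beside 21.1% of all genes called higher and 21.3% called lower. Because the lists were chosen with earlier results of these data known, their shares are descriptions and not independent of these data.

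The kinases that start the response moved in different directions. Eif2ak1 (HRI) was higher, with a log2 fold change of 0.20 and levels of 37.1 ± 2.34 and 42.6 ± 3.01 CPM (SD, n = 6), a call that was lost with library size alone. Eif2ak2 (PKR) was lower at -0.48 without overlap (22 ± 1.33 and 15.8 ± 1.15 CPM). Eif2ak3 (PERK) had 0.31, a call lost in 5 of the 12 fits that left out 1 liver (0.23 to 0.37), namely without Sedentary replicate 2, 3 or 4 or Exercise replicate 1 or 3. The call was also lost with library size alone (0.21) and without Exercise replicates 1 and 3 together (0.12). Eif2ak4 (GCN2) did not pass (log2 fold change -0.16, edgeR adjusted p = 0.172). Among their partners, the inhibitors Dnajc3 (0.48) and Impact (0.41) were higher and the GCN2 activator Gcn1 (-0.24) was lower. In all, 4 of 8 genes of this list were higher and 3 lower, or 2 and 3 with library size alone.

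Among the subunits of eIF2 and eIF2B and of the phosphatase, 2 of 14 were higher and 7 lower (1 and 9 with library size alone), with a median log2 fold change of -0.15. Eif2b3, a subunit of the exchange factor eIF2B, went from 12 ± 1.71 to 6.12 ± 0.93 CPM (SD, n = 6; log2 fold change -0.97, edgeR adjusted p = 3.03e-06). Eif2s1, the alpha subunit that the kinases phosphorylate, was lower by a log2 fold change of -0.29, and Eif2b4 by -0.28. Ppp1cb, a catalytic phosphatase subunit, was higher (0.30).

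A mixed list of ATF4's partners and other stress factors had 8 of 14 genes higher and 3 lower, or 7 and 3 with library size alone. Cebpb went from 43.2 ± 6.81 to 109 ± 11.7 CPM (SD, n = 6; log2 fold change 1.34, edgeR adjusted p = 8.69e-08) without overlap. Cebpa, the more abundant C/EBP of hepatocytes, named here after its values were seen, went the other way, from 329 ± 46.3 to 227 ± 16.1 CPM (log2 fold change -0.54, edgeR adjusted p = 5.29e-05), also without overlap. Cebpd, likewise named after its values were seen, rose without overlap. It went from 7.22 ± 1.79 to 19.3 ± 3.02 CPM (log2 fold change 1.415, edgeR adjusted p = 6.1e-06). Maff (2.27), Nfil3 (0.92) and Mafg (0.52) were also higher, and Xbp1, the factor of the IRE1 arm, was lower (-0.41). Cebpg, the constitutive partner of ATF4, had a log2 fold change of 0.057 (edgeR adjusted p = 0.531), which was -0.039 with library size alone. Atf3, a common target of ATF4, was at 1.13 ± 0.496 and 1.04 ± 0.512 CPM (SD, n = 6) and did not pass (log2 fold change -0.13, edgeR adjusted p = 0.772). The other Tribbles genes, Trib1 (0.84) and Trib2 (0.72), were higher without overlap, as Trib3 was.

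The enzymes beside Psat1, Phgdh and Asns did not move as a block. Of the serine, glycine and one-carbon enzymes 5 of 19 were higher and 3 lower (4 and 5 with library size alone), and 42.1% were called, near the share of all genes. Psph, the last step of serine synthesis, did not pass (log2 fold change 0.15, edgeR adjusted p = 0.35), nor did Mthfd2, a frequent mark of ATF4 activity (0.076, adjusted p = 0.785, and -0.019 with library size alone). Shmt1 (-0.53) and Gcsh (-0.22), a carrier protein of the glycine cleavage system, were lower without overlap, while Sdsl (0.93), which breaks serine down, and Cbs (0.33), which uses it for cystathionine, were higher. Shmt2 was called lower at -0.14, and lost this call in 7 of the 12 fits that left out 1 liver (-0.15 to -0.11).

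Among the enzymes of proline, asparagine and aspartate 2 of 12 were higher and 6 lower, or 2 and 3 of 13 without Exercise replicates 1 and 3. Got1, which links aspartate to gluconeogenesis, went from 167 ± 52.9 to 567 ± 98.8 CPM (SD, n = 6; log2 fold change 1.76, edgeR adjusted p = 7.94e-05), and Gpt2 was higher (0.31). Glutamine synthetase, Glul, was lower (-0.74), as was Prodh (-0.34).

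Among the carriers, Slc38a2, the sodium-coupled carrier SNAT2 and a well known ATF4 target, went from 83.3 ± 13.5 to 230 ± 22.6 CPM (log2 fold change 1.47, edgeR adjusted p = 2.55e-08). Slc3a2, the heavy chain of several exchangers, was higher (0.30). Slc1a4 (-1.11), Slc36a1 (-0.80) and Slc38a7 (-0.49) were lower. The cystine carrier Slc7a11, another well known target, was not tested, with no more than 2 reads in a liver. In all, 2 of 9 carriers tested were higher and 3 lower, and 55.6% were called against 42.4% of all genes.

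Of the aminoacyl-tRNA synthetases and the exportin Xpot, none of 13 was called higher and 9 were called lower by edgeR (11 with library size alone, 7 without Exercise replicates 1 and 3), with a median log2 fold change of -0.20. Lars (-0.66), Yars (-0.45), Aars (-0.34) and Mars1 (-0.25) had the smallest p. Lars went from 20.4 ± 1.78 to 12.9 ± 0.52 CPM (SD, n = 6).

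The brakes on mTORC1 and growth were the list with the largest share called among those of more than 2 genes, 9 of 12 higher and 2 lower (8 and 2 with library size alone), with a median log2 fold change of 0.68. Ddit4 (REDD1) went from 8.43 ± 2.49 to 113 ± 31.7 CPM (log2 fold change 3.74, SE 0.26, edgeR adjusted p = 1.47e-06). Sesn2 went from 3.68 ± 1.28 to 10.8 ± 1.3 CPM (1.56), and Sesn1 was higher (0.52). Gadd45a, a growth arrest gene, was lower (-1.55). The growth arrest genes Cdkn1a (2.05), Gadd45b (1.25) and Btg1 (0.84), named here after their values were seen, went the other way. Each was higher without overlap.

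The secreted targets did not share a direction. Fgf21, the hepatokine of fasting and amino acid lack, was at 0.99 ± 0.322 CPM in Sedentary and 0.267 ± 0.13 CPM in Exercise livers. It was called lower (log2 fold change -1.88, edgeR adjusted p = 0.000118), on 12 to 30 reads in a Sedentary liver and 3 to 9 in an Exercise liver. Vegfa was also lower (-0.25). Igfbp1, a binding protein for insulin-like growth factors, was higher (2.76). Gdf15 (log2 fold change 0.22, edgeR adjusted p = 0.539) and the lipoprotein receptor Vldlr (-0.23, adjusted p = 0.362) did not pass, and Stc2 had too few reads to be tested.

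The endoplasmic reticulum genes under the IRE1 and ATF6 arms were called in 1 direction, 16 of 22 higher and none lower by edgeR (11 with library size alone, and 11 without Exercise replicates 1 and 3), with a median log2 fold change of 0.40. Herpud1, a factor of protein disposal, went from 263 ± 60.3 to 801 ± 87.5 CPM (log2 fold change 1.60, edgeR adjusted p = 8.38e-07). Syvn1 (1.11), Manf (0.75) and the chaperone Hspa5 (BiP, 0.72) were higher without overlap.

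Autophagy genes were higher in 7 of 15 and lower in 1 (6 and 2 with library size alone), and 53.3% were called against 42.4% of all genes. Those with the smallest p were Gabarapl1 (0.91), Ulk1 (0.72), Map1lc3b (0.54) and Nbr1 (0.37). Beside Chac1, the genes of glutathione handling gave 1 higher (Lap3, 0.30) and 1 lower (Oplah, -0.16) of 11, or 1 and 4 with library size alone. The share called was 18.2%, below that of all genes. The call of Oplah was lost in 7 of the 12 fits that left out 1 liver (-0.18 to -0.12). Cndp2, a dipeptidase, did not pass (log2 fold change -0.14, edgeR adjusted p = 0.0745), but did with library size alone (-0.24, adjusted p = 0.0153) and without Sedentary replicate 5 (-0.18, adjusted p = 0.0182). Chac2, the constitutive relative of Chac1, did not pass (log2 fold change 0.13, edgeR adjusted p = 0.0757), but did without Sedentary replicate 4 (0.16, adjusted p = 0.0424) or Exercise replicate 5 (0.17, adjusted p = 0.038). Of the mitochondrial stress genes 1 of 12 was higher (Clpx, 0.31) and 3 lower, Dele1 (-0.37) and Oma1 (-0.24), which relay mitochondrial stress to HRI, and Afg3l2 (-0.15). The share called was 33.3%, again below that of all genes. The call of Clpx was lost with library size alone (0.21), and that of Afg3l2 without Sedentary replicate 5 or Exercise replicate 2, 3 or 6 (-0.17 to -0.12 over the 12 fits).

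**Figure D5:**
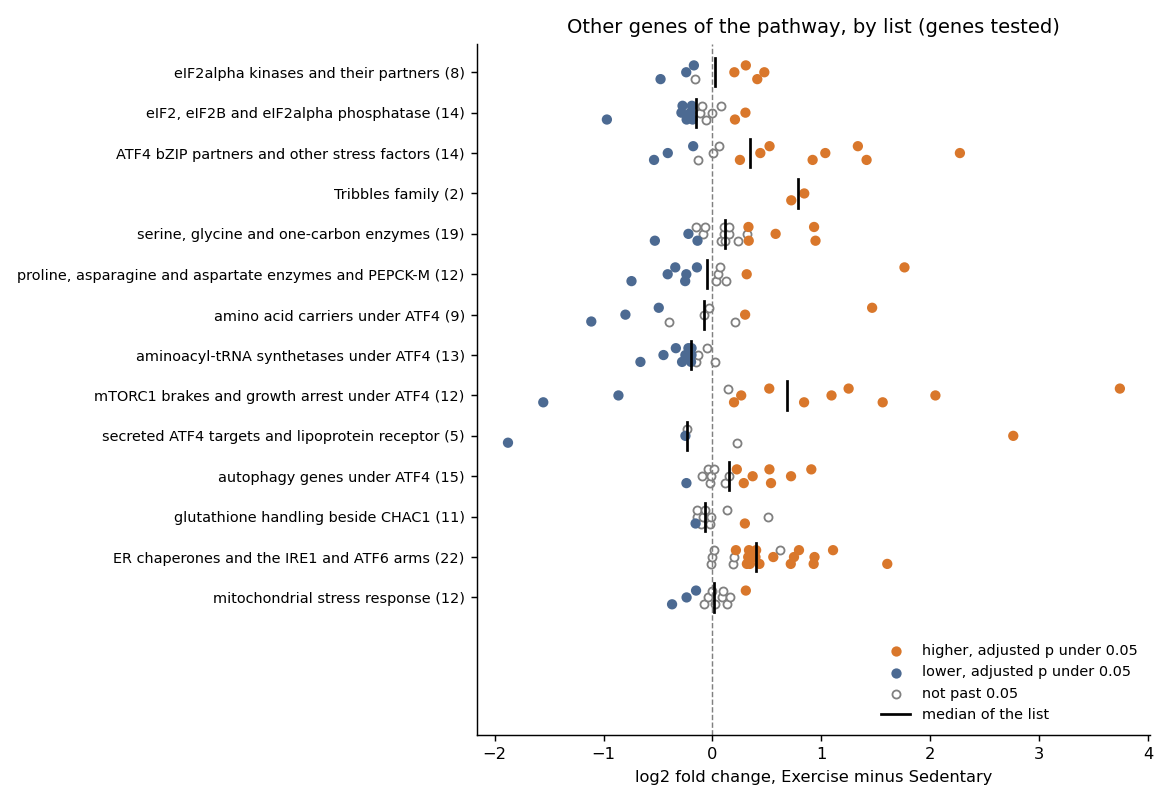
Log2 fold change of Exercise against Sedentary (x axis) for the 168 other pathway genes tested, by list (y axis, number of genes tested in brackets); orange and blue points were called higher and lower at an adjusted p under 0.05 by edgeR, open points were not called, and the black line is the median of the list. The 9 called tRNA synthetases lie left of 0 and the 16 called endoplasmic reticulum genes right of 0, while the kinases and one-carbon enzymes lie on both sides.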

How the data were processed

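Liver RNA of 12 mice was sequenced, 6 Sedentary and 6 Exercise with a BGI mRNA-Seq kit. The authors deposited 1 table in which each of 17432 genes has, per liver, its estimated count and its FPKM. The authors' estimated counts were not scaled between livers, and 31.3% of them were not whole numbers. The deposited FPKM values correct for the length of the transcript and for depth. The submitters' processing notes name Bowtie2 2.3.4.3, RSEM 1.3.1 and mm10, and the strand setting of the counting is not given in the sources used here.

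Groups came from the sample labels, which number the livers 1 to 6 in each group. The study gives separate mice, so that p-values weigh group differences against the spread between mice. Rounded counts were filtered with filterByExpr (min.count 10), scaled by TMM and fitted in edgeR 4.0.16 (R 4.3.3) by the robust quasi-likelihood method, without covariates. Adjusted p-values are by Benjamini and Hochberg over 12344 genes, with a threshold of 0.05. The SE was taken from the quasi-likelihood F. The biological coefficient of variation was 11.3%. All 10 genes were also compared by an exact permutation test on log2(CPM + 0.5), whose p was not adjusted over genes. For the genes not called, this exact test gave p = 0.0844 for Atf5, 0.143 for Chac1, 0.266 for Asns, 0.768 for Phgdh and 0.775 for Nupr1. Pairs of genes were compared by 100000 resamples that shuffled livers within groups. The members and the gene lists were chosen with earlier results of these data known. From each list the text names the 4 genes with the smallest p and a chosen set, with all 10 members. That set holds the eIF2alpha kinases, ATF4 partners, relatives of members, endoplasmic reticulum genes and some, not all, standard ATF4 targets. The promoter paragraph names every other pathway gene that held the ATF4 core. Genes named after their values were seen are marked so where they stand. The genes most like Ddit3 are not reported here. Counting error limits genes with few reads, and the spread between mice the others. The tests were tried on simulated counts. Alternatives were other scalings, filters and thresholds, DESeq2 1.42.0, limma 3.58.1 (voom, and log2(FPKM + 0.1) or log2(FPKM + 1)), the replicate number as a block, and leaving out each liver. Leaving out Exercise replicates 1 and 3 together, since muscle markers or several genes stood apart in them, was chosen after seeing the data. Positions came from GENCODE M21 (GRCm38) and promoter windows from RefSeq (GRCm38.p6). The permutation tests used scipy 1.17.1 under Python 3.11.15.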

Additional observations from a re-analysis of the deposited data

Results flagged for a closer look

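In each group of 6 livers, the highest or lowest liver was compared with its nearest neighbour, as the gap divided by the range of the group and read against Dixon's 95% critical value for 6 samples. Of 156 groups over 78 genes 15 stood out, where chance gives about 7.8. Among the genes of the stress response these were Trib3 in Exercise replicate 6 (high, ratio 0.71, 5.74 CPM with the next liver at 4), Asns in Exercise replicate 4 (high, 0.709, 3.36 CPM with the next at 2.02) and Psat1 in Sedentary replicate 2 (high, 0.7, 1.19 CPM with the next at 0.706).

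Exercise replicate 3 stood high in 6 genes, with ratios of 0.693 for Impact, 0.721 for Cebpg, 0.701 for Atf3, 0.759 for Prodh, 0.687 for Fgf21 and 0.651 for Gabarapl1. Exercise replicate 5 was low for Trib2 (0.633) and high for Lars (0.699), Exercise replicate 4 was low for Slc3a2 (0.683) and Exercise replicate 1 was high for Manf (0.637). Sedentary replicate 2 was low for Lap3 (0.662). For Slc7a11, Sedentary replicate 4 held the only read of its group (ratio 1), at 0.0504 CPM. The cause of these deviations was not tested.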

How the results depend on the processing

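Of 281 recomputed values for the counts and the 9 tested genes, 266 changed neither sign nor call, or, for a count, stayed within 1.5 times. A minimum change of 1.5-fold left 1581 genes in all, 3 of the 10 genes (Trib3, Ppp1r15a and Psat1) and 35 pathway genes. With library size alone, and with limma on log2(FPKM + 0.1) or log2(FPKM + 1), the log2 fold change of Atf5 was -0.249, -0.249 and -0.247 and passed, and that of Ddit3 was 0.191, 0.169 and 0.148 and did not. In the same order Ppp1r15b was -0.0185, -0.019 and -0.0177, Cebpg -0.0391, -0.0373 and -0.0345, and Mthfd2 -0.0185, -0.00927 and -0.00264, all without passing. Library size alone moved the median of all genes to -0.098 and limma on log2(FPKM + 0.1) to -0.093. Without Exercise replicates 1 and 3, chosen after seeing the data, Ddit3 was 0.256 and did not pass. Over the 12 fits that left out 1 liver, log2 fold changes ran from -0.196 to -0.117 for Atf5, 0.256 to 0.37 for Ddit3, -0.243 to 0.103 for Nupr1, -0.42 to 0.0847 for Atf3 and -0.0306 to 0.178 for Mthfd2. Beyond what these settings do by construction, the cause was not tested.

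Deviations of livers with the same number had low correlations, from -0.11 to 0.168. Sedentary replicates 1 and 2 correlated best with the Exercise liver of their own number, and the other Sedentary livers did not. The labels do not state whether the numbers pair livers, and these correlations, given without a reference, cannot decide it. With the replicate block 4956 genes were called in place of 5229, and 97 pathway genes in place of 103. With the replicate block no call of the 9 genes changed. Psat1, Nupr1 and Fgf21 rest on few reads, as do Trib2, Atf3, Mthfd2 and, in Exercise livers, Gadd45a. Phgdh was tested only without the filter on low counts. Over the alternatives that kept all livers, log2 fold changes ran from -1.28 to -0.237 for Psat1 and from 0.206 to 0.767 for Trib2. With at least 10 counts in every liver Psat1 and Fgf21 were not tested.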
